A study of Mus musculus with 44 samples.

Results

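The genes described here encode the cytosolic translation machinery: the proteins of the ribosome and the initiation and elongation factors that work on it. They were taken by symbol from the deposited table, as every row beginning with Rpl, Rps, Rplp, Eif or Eef and a digit, plus Rpsa, with the S6 kinase genes left out. This gave 98 of the 3613 genes listed, of which 63 are ribosomal protein genes (35 of the large subunit and 28 of the small) and 35 are factor genes. Mouse GENCODE M21 holds 92 protein-coding symbols of the first kind and 68 of the second, of which 61 and 35 are listed. The other 2 ribosomal symbols are Rpl14-ps1, named as a pseudogene, and Rpl37rt, named as a retrogene.

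Translation begins when the small ribosomal subunit, loaded with initiator tRNA by eIF2 and held by eIF3, is brought to the capped mRNA by the eIF4 factors and scans to a start codon. eIF5B then joins the large subunit, eEF1 delivers aminoacyl-tRNA, and eEF2 moves the ribosome along. Many ribosomal protein and elongation factor mRNAs begin with a run of pyrimidines, and signalling through TOR controls their translation through it. Macrophages and bone-forming stromal cells both express this machinery.

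The study asks how megakaryocytes affect osteomacs, the resident macrophages of bone. Neonatal calvarial cells of C57BL/6J mice, 100000 per culture, were kept for 16 h with 50000 megakaryocytes or without them. Cells positive for CD45 and F4/80 and negative for CD41 were then sorted, captured singly on a Fluidigm C1 chip and sequenced after SMART-Seq amplification. The 20 cells labelled as cultured with megakaryocytes (with-MK cells) all come from plate 7 and the 24 labelled as cultured without (without-MK cells) all come from plate 3. Plate and treatment therefore cannot be told apart. Titles of without-MK cells also name megakaryocytes, in conflict with the treatment given. Cultures and animals are not named in the labels, which leaves 1 sample a group. There is no test between the groups, and the values describe these cells, not the conditions.

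The labelled cell type held in one group only. The 17 listed genes of a 19-gene macrophage list summed to between 2626 and 56122 CPM (reads × 1000000 over the library reads of the cell) in with-MK cells and to between 0 and 176.4 in the without-MK cells. C1qb, C1qc, Fcgr1, Fcgr3 and Aif1 had no read in any without-MK cell, and Ptprc, which encodes CD45, had a read in 1 of 24. The 7 listed genes of a 12-gene osteoblast and fibroblast list summed to between 3.88 and 195.6 CPM in with-MK cells and to between 4276 and 98080 in the without-MK cells. The data thus go against the osteomac label of the without-MK cells, and every difference below is also one between macrophage-marker cells and stromal-marker cells. The part of that difference in each result was not tested. Library reads per cell ranged from 69181 to 1212604 and from 270537 to 714465. With-MK cells 11 and 16 were the shallowest, and cell 16 had Malat1, a nuclear RNA, at 245233 CPM where the group median was 6623.

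Ribosomal protein transcripts were at a lower level in with-MK cells. Their summed level per cell had a minimum of 3382, a median of 9922 and a maximum of 12791 CPM in with-MK cells, and 8874, 13936 and 21282 CPM in the without-MK cells. The groups overlapped, with 8 of 20 with-MK cells below the lowest without-MK cell and 20 of 20 below the without-MK median. Over all reads of a group the level was 9057 CPM against 14539, a ratio of 0.623 (95% counting interval 0.619 to 0.627). Such intervals cover the counting error of pooled reads only, and leave out the spread over cells and cultures. The reads carry no molecular identifiers, so amplified copies count as separate reads and the counting error of molecules is not covered. The lowest 3 with-MK cells were 13, 16 and 7.

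Translation factor transcripts were lower by a similar ratio and with less overlap. Their sum per cell had a minimum of 4112, a median of 8461 and a maximum of 13053 CPM in with-MK cells, and 11095, 15209 and 18702 CPM in the without-MK cells. Of the 20 with-MK cells, 18 lay below the lowest without-MK cell. The pooled levels were 8540 and 15057 CPM, a ratio of 0.567 (0.563 to 0.571). The ratio of the ribosomal protein sum to the factor sum had a median over cells of 1.06 in the with-MK group and 0.977 in the without-MK group, within ranges of 0.498 to 1.51 and 0.648 to 1.23.

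**Figure D1:**
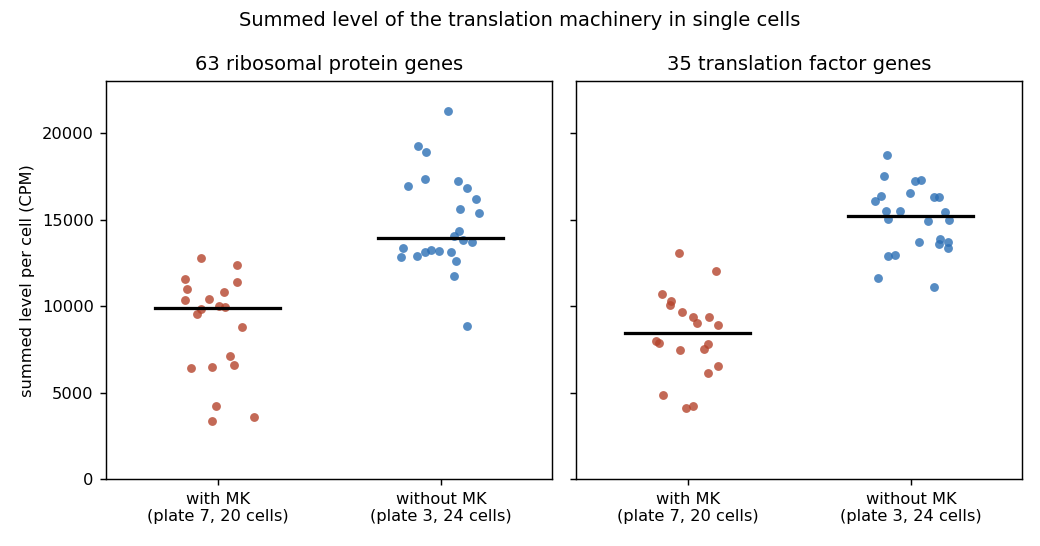
Summed level of the 63 ribosomal protein genes (left) and the 35 factor genes (right) in each cell, in CPM on a linear axis from 0; each point is 1 cell and each line a group median. The factor sums of 18 of the 20 with-MK cells lie below every without-MK cell.

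Nearly all members shared the direction. Counts of genes below are over the 3271 listed genes that were read in 10 or more of the 44 cells. Of these genes, 53.4% had a lower pooled level in with-MK cells, and 28.3% were at least 2-fold lower against 24.4% at least 2-fold higher, or 52.6% either way. All 63 ribosomal protein genes reached that limit. Of these, 62 were lower, 22 of them by at least 2-fold, and none was 2-fold higher. Of 33 factor genes that reached it, 31 were lower, 15 by at least 2-fold, and none was 2-fold higher. The median log2 ratio was −0.79 for ribosomal proteins and −0.85 for factors, beside −0.14 for all 3271 genes. Taken as mean log2(CPM + 1) per cell, which gives every cell equal weight, the median difference was −1.18 for ribosomal proteins and −1.99 for factors. For ribosomal proteins this is close to the −1.10 of all genes, of which 72.2% were lower on that scale.

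Detection differed too, for members as for all listed genes. The median number of the 63 ribosomal protein genes read was 59 per with-MK cell and 62 per without-MK cell. For all listed genes it was 2054 and 2492. The median share of cells with a read was 95% and 100% for ribosomal protein genes, and 65% and 83.3% for the 3271 genes. Lower detection is thus not particular to the members. The lower levels also hold for members read everywhere: 18 ribosomal protein genes and 10 factor genes had reads in every one of the 44 cells, as did 6.57% of the genes counted (215). Those 18 had a pooled ratio of 0.643 and those 10 a ratio of 0.599, while the 215 together had 1.29. These are ratios of summed reads, in which abundant genes weigh most. For all 3271 genes the summed ratio was 1.19 although the median log2 ratio was −0.14. The 1.29 is therefore not the ratio of a typical gene of the 215.

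**Figure D2:**
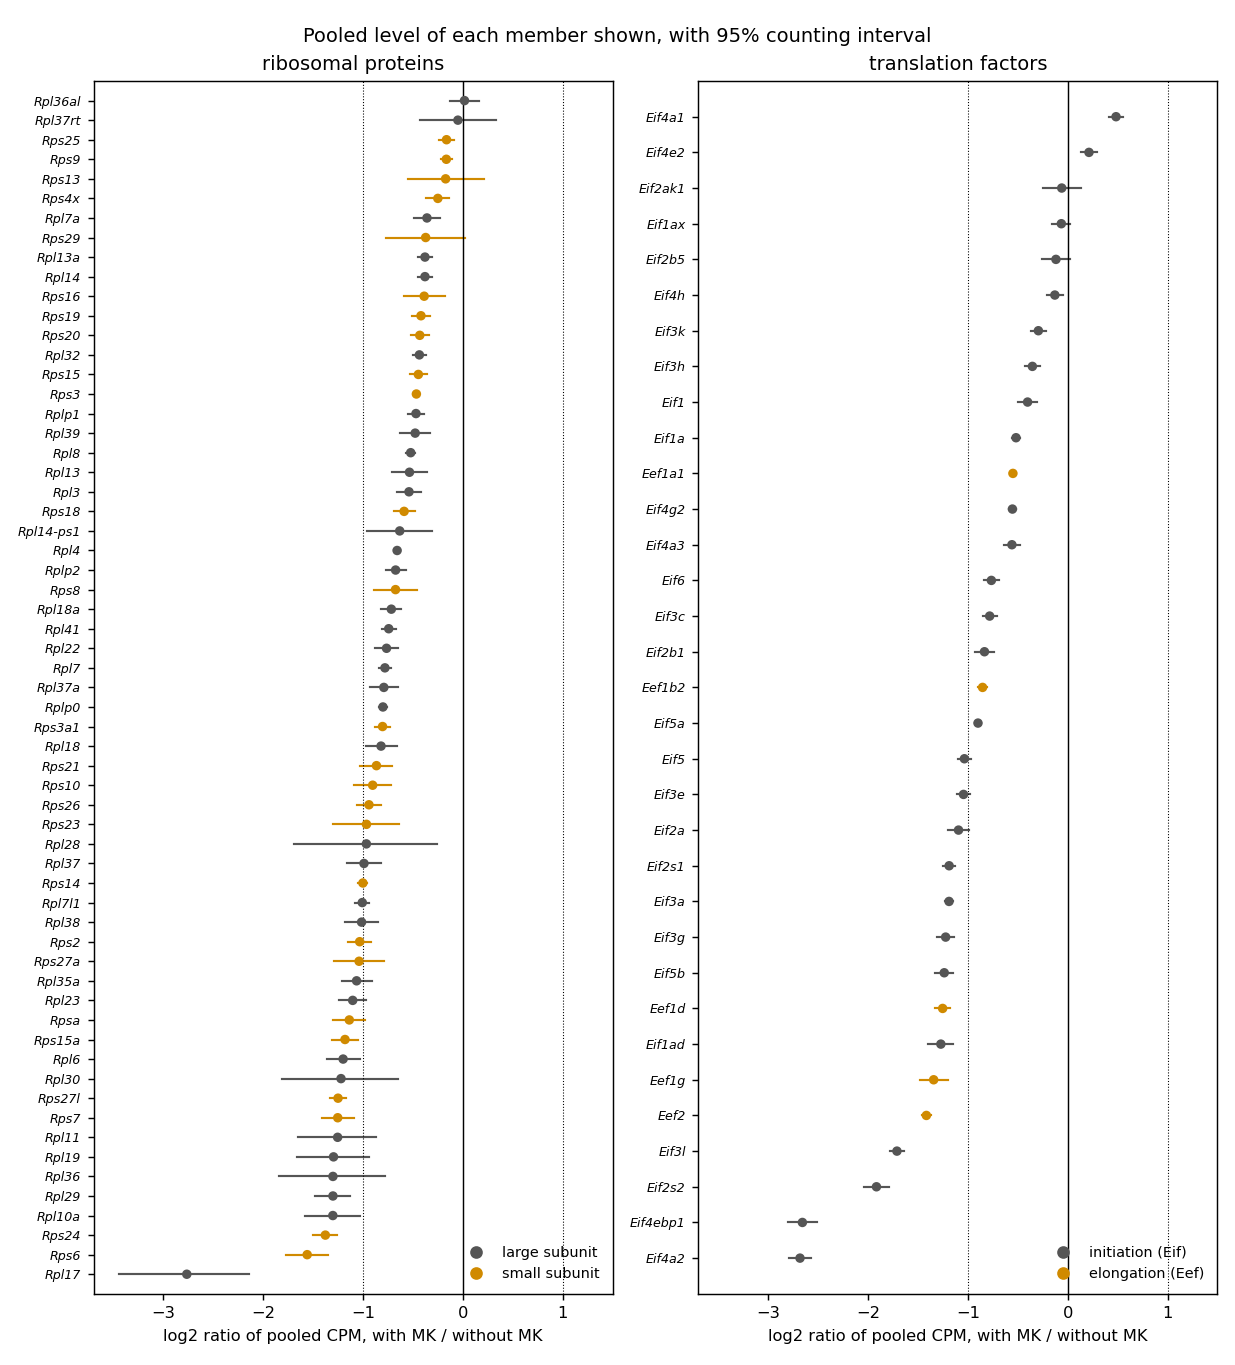
Log2 ratio of pooled CPM, with-MK over without-MK cells, for 61 of the 63 ribosomal protein genes (left) and the 33 factor genes read in at least 10 cells (right); bars are 95% counting intervals, dotted lines mark 2-fold. All genes drawn but Rpl36al, Eif4a1 and Eif4e2 lie below 0, and Rpl36al and Eif4e2 also do so with listed reads as the total.

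Both ribosomal subunits were lower to a like degree. The 35 large-subunit genes had a pooled ratio of 0.629 and the 28 small-subunit genes 0.617. The ratio of the large to the small sum had a median over cells of 0.987 in the with-MK group and 0.999 in the without-MK group. Rpl4 was among the most abundant members per kilobase in both groups, at 791.9 and 1250 CPM per kilobase of its longest basic protein-coding transcript. The longest APPRIS principal transcript gave the same values, and the union of exons gave 606.9 and 958.1. The order of all 63 genes per kilobase was similar in the groups (Spearman correlation across genes 0.986, where genes are not independent replicates). That correlation was taken with the longest basic protein-coding transcript only.

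Rpl4 and Rps3 had the most reads of the class. Rps3 is a small-subunit protein at the mRNA entry channel, and its level was 27.9, 1222 and 2283 CPM (lowest, median, highest) in with-MK cells and 970.1, 1727 and 2934 in the without-MK cells, and the groups overlapped. Its pooled ratio was 0.724 (0.710 to 0.738). Rpl4, a large-subunit protein lining the exit tunnel, was at 164.7, 1207 and 2207 CPM against 1159, 1884 and 3084, with a ratio of 0.633 (0.621 to 0.646). Rplp0, the base of the stalk that recruits elongation factors, was at 111.8, 442.1 and 1066 CPM against 543.7, 825.4 and 1364, with a ratio of 0.574 (0.558 to 0.591). The lowest values of Rps3 and Rplp0, and those of Rps14 and Eef1a1 below, are from cell 16 alone, the shallow cell with high Malat1. The next lowest with-MK values were 291.3 CPM for Rps3, 207.2 for Rplp0, 109.4 for Rps14 and 532.6 for Eef1a1. The stalk proteins Rplp1 and Rplp2 had ratios of 0.722 and 0.627.

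Rps14, a protein of the small-subunit platform, had the most with-MK cells below the whole without-MK range among ribosomal proteins. It was at 27.9, 398.8 and 690.3 CPM in with-MK cells and 611.4, 743.5 and 1409 in the without-MK cells. Thus 18 of 20 with-MK cells lay below every without-MK cell, with a pooled ratio of 0.499 (0.484 to 0.515).

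The lowest ratios belonged to members with fewer reads. Rps6, the small-subunit protein phosphorylated by S6 kinase, was at 0, 9.13 and 89.6 CPM against 0, 33.5 and 269.2, a ratio of 0.339 (0.293 to 0.391). Rps24 was at 0, 52.1 and 216.8 CPM against 66.0, 143.6 and 235.6, a ratio of 0.385 (0.354 to 0.418). Rpl17 had a ratio of 0.147 (0.0919 to 0.227), but on low levels of 1.60 and 10.9 CPM. At the other end, Rps9 and Rps25 were near parity, with ratios of 0.891 and 0.893. Rpl36al, a copy of the large-subunit gene Rpl36a, had a pooled ratio of 1.01 (0.911 to 1.12), the only one of the class above 1. Its median was 33.7 CPM against 54.2 and its mean log2 difference −0.64, and its pooled log2 ratio of 0.02 became −0.25 with listed reads as the total, −0.07 with equal weight per cell and −0.01 without each plate's top cell. Ribosomal protein genes have many processed copies, and how reads shared with them were assigned is not given in the sources used here, so the values of single members are uncertain by that.

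The promoters show where the pyrimidine run lies. The start regions of Rps6, Rps24 and Rps9 (lowest and near-parity ratios) and of Rps3 are given from 30 bases before to 15 bases from the RefSeq start, 5′ to 3′ on the coding strand, build GRCm38.p6. Capitals mark an unbroken run of at least 8 C or T within 10 bases before and 15 after the start.
Rps6, chr4:86857353-86857397, minus strand: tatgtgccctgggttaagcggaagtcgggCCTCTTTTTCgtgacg
Rps24, chr14:24490648-24490692, plus strand: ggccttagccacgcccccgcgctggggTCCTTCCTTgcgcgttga
Rps9, chr7:3704011-3704055, plus strand: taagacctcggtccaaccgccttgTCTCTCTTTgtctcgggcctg
Rps3, chr7:99483695-99483739, minus strand: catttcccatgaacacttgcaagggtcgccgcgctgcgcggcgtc

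Such a run lies at 30.9% of the 55 annotated starts of the 45 ribosomal protein genes that could be matched, at 8.82% of the 34 starts of 27 matched factor genes, and at 9.49% of all 32851 starts in the table. Runs of A or G of that length, which are the same search on the other strand, lie at 3.64%, 8.82% and 10.8%. The 17 ribosomal protein genes with a run had a median log2 ratio of −0.90 and the 28 without −0.80. Rps6 and Rps9, both with a run, stand at opposite ends of the ratios. A missing run says only that these letters are not in this window.

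Among factors the summed level of each initiation and elongation family was lower. The 7 eIF3 genes, which form the scaffold on the small subunit, had a pooled ratio of 0.495 (0.487 to 0.503), with 4 at least 2-fold lower. Eif2s1 and Eif2s2, which encode subunits of eIF2, and Eif2a, a separate factor that binds initiator tRNA, were all at least 2-fold lower, with a ratio of 0.412 for the 3 together (0.399 to 0.426). Without the top cell of each plate (with-MK cell 7 and without-MK cell 24) the log2 ratio of Eif2a went from −1.09 to −1.80. Eif2s2, the beta subunit of eIF2, had a median of 30.4 CPM in the with-MK group and 142.8 in the without-MK group, and 15 with-MK cells lay below every without-MK cell. The eIF1 group, formed by symbol from Eif1, Eif1a, Eif1ax and Eif1ad, had a ratio of 0.710, and the eIF5 group 0.515. Eif6, which keeps free large subunits apart from small ones, had 0.588.

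Eef1a1 had the most reads among factors. This protein, which carries aminoacyl-tRNA to the ribosome, was at 14.0, 1347 and 3068 CPM in with-MK cells and 1198, 2202 and 3698 in the without-MK cells, a ratio of 0.683 (0.671 to 0.695). Eef2, which moves the ribosome, was at 6.25, 408.6 and 1215 CPM against 306.8, 897.0 and 2572, a ratio of 0.375 (0.364 to 0.387). Eef1g and Eef1d, subunits of the exchange factor that recharges eEF1A, had ratios of 0.394 and 0.420. The groups overlapped for each of these 4 genes.

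Other abundant factors had wide ranges over cells. Eif4g2, a relative of the eIF4G scaffold that lacks its cap-complex region, was at 6.34, 506.3 and 3892 CPM in with-MK cells against 673.2, 1354 and 2131, a ratio of 0.681 (0.666 to 0.696). Thus 11 with-MK cells lay below and 2 above the whole without-MK range. Eif5a, the hypusine-bearing factor that relieves stalled ribosomes, was at 6.15, 789.3 and 1518 CPM against 505.1, 1562 and 3012, a ratio of 0.536 (0.524 to 0.548), and 13 without-MK cells lay above every with-MK cell. Eif3a, the largest eIF3 subunit, was at 13.3, 333.0 and 1890 CPM against 136.4, 835.5 and 2898, a ratio of 0.439 (0.425 to 0.452), with overlap.

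The eIF4A helicases, which unwind the mRNA leader, went in opposite directions. Eif4a1 had reads in every cell and was at 97.8, 237.0 and 609.2 CPM in with-MK cells against 79.9, 193.6 and 484.2 in the without-MK cells, a pooled ratio of 1.40 (1.33 to 1.47). Eif4a2 was at 0, 0.529 and 385.5 CPM in with-MK cells and at 164.1, 306.3 and 686.4 in the without-MK cells, a ratio of 0.156 (0.145 to 0.168). Reads of it were found in 10 of the 20 with-MK cells and in all 24 without-MK cells. The with-MK cells split by Eif4a2: 6 of them (cells 1, 2, 10, 13, 15 and 20) held at least 10 CPM (98.0, 12.5, 230.3, 158.6, 200.4 and 385.5) and the other 14 held less, while every without-MK cell held at least 164.1. The Eif4a1 ranges overlapped, with 3 with-MK cells above every without-MK cell.

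Their start regions are shown because this pair differs most within one family. No pyrimidine run of that length lies in either window.
Eif4a1, chr11:69672409-69672453, minus strand: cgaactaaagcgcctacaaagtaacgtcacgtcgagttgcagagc
Eif4a2, chr16:23107438-23107482, plus strand: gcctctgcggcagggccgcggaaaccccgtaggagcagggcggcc

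Per kilobase of transcript, Eif4a1 made up a median of 99.9% of the pair in with-MK cells and 49.7% in the without-MK cells, and more than 50% in 19 of 20 and 12 of 24 cells. These shares depend on the transcript length taken. With the longest APPRIS principal transcript or with the union of exons, lengths also tried on these data, the without-MK median was 44.7% or 44.4% and the count 8 of 24 under both, while the with-MK count stayed at 19. No order of Eif4a1 and Eif4a2 in the without-MK cells is read from these shares.

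**Figure D3:**
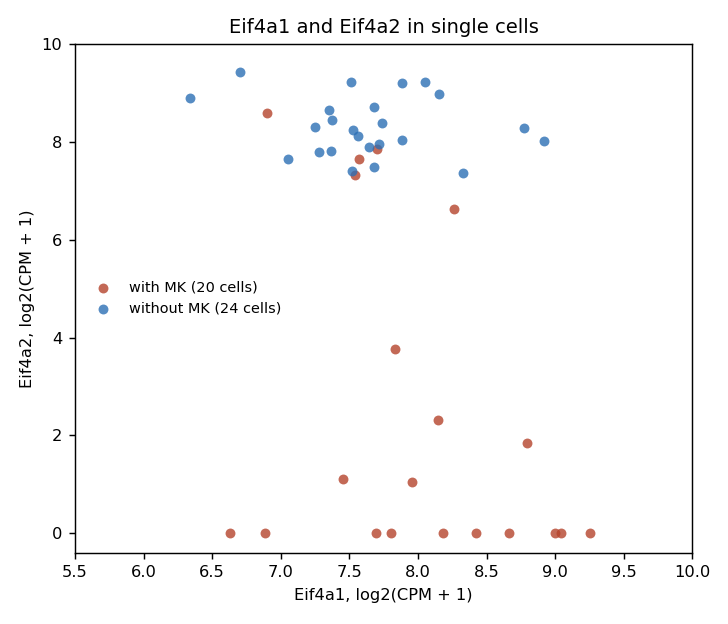
Eif4a1 (horizontal) and Eif4a2 (vertical) in each cell, both as log2(CPM + 1); each point is 1 cell. All 24 without-MK cells lie high on the vertical axis, while 14 of 20 with-MK cells hold less than 10 CPM of Eif4a2.

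Eif4ebp1 encodes an inhibitor of eIF4E that TOR phosphorylates. It was at 0, 10.6 and 127.9 CPM in with-MK cells and 1.43, 178.6 and 518.4 in the without-MK cells. Its ratio was 0.158 (0.143 to 0.175), and 14 without-MK cells lay above every with-MK cell. Eif4e2, a cap-binding homologue of eIF4E, was the other factor with a higher pooled level, at 1.16 (1.10 to 1.23), with reads in 17 with-MK and 23 without-MK cells. Its median was lower, at 123.5 CPM against 150.1, as was its mean log2 value, with a difference of −1.63. With listed reads as the total its pooled log2 ratio, 0.21, became −0.05. Eif3l had a ratio of 0.306 (0.291 to 0.321), and 0 reads in 5 with-MK cells. Cell 2 held 41.4% of its with-MK reads, and without the top cell of each plate its log2 ratio went from −1.71 to −2.32. For Eif2ak1, a kinase that phosphorylates eIF2, 99.6% of the with-MK reads came from 1 cell. Leaving out each plate's top cell moved its log2 ratio from −0.06 to −6.92. There the with-MK sum was set to a floor of 3 reads, so −6.92 depends on that floor. Eif2ak3 and Eif4ebp2 had reads in fewer than 10 cells.

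**Figure D4:**
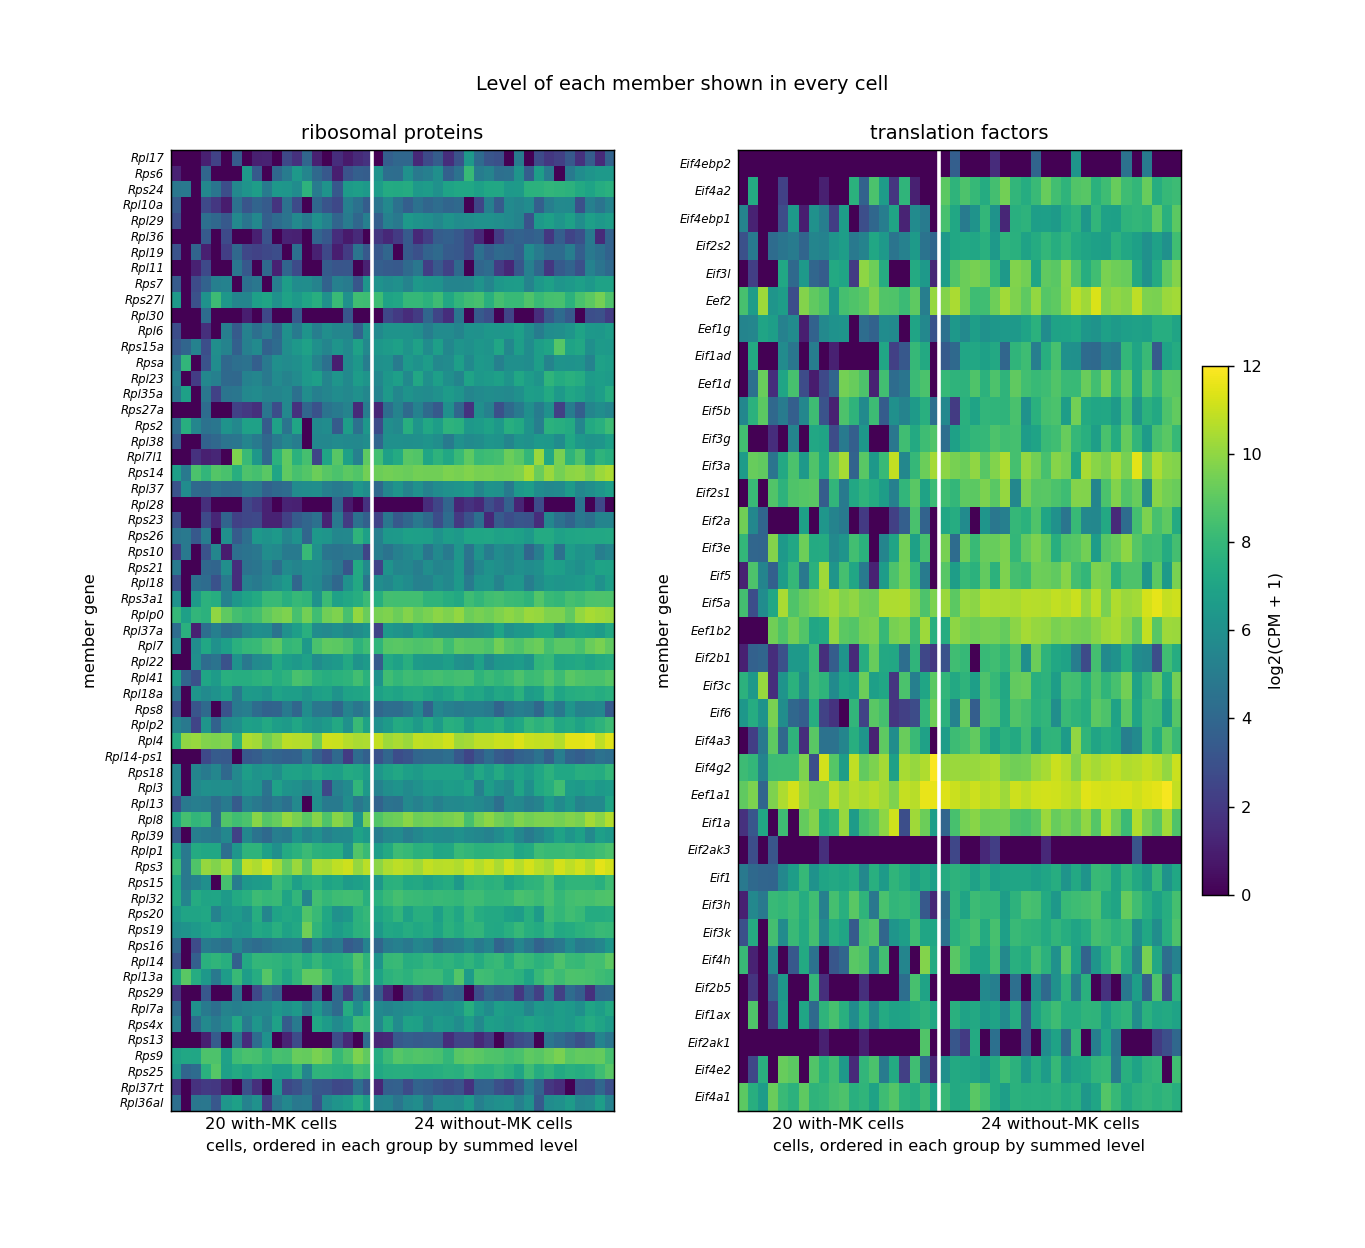
Level of 61 of the 63 ribosomal protein genes and all 35 factor genes (rows, ordered by log2 ratio) in every cell (columns, ordered within each group by summed level), as log2(CPM + 1) in colour. Eif4a2 and Eif4ebp1, near the top of the right panel, are dark in most with-MK cells and bright in the without-MK cells.

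Within a group, ribosomal protein genes followed their class sum more closely than factor genes did, as a description without a test. The Spearman correlation of a member with the summed level of the rest of its class, across cells, had a median of 0.522 over 20 with-MK cells and 0.460 over 24 without-MK cells for ribosomal proteins, and of 0.094 and 0.128 for factors. All levels share the library total of the cell. Among the members most like their class were Rps18 (0.854) and Rpl38 (0.830) in with-MK cells and Rps26 (0.780) and Rps21 (0.738) in the without-MK cells. Eif4a1 had −0.233 in with-MK cells. The ribosomal protein and factor sums had correlations of 0.591 and 0.701. In with-MK cells the ribosomal protein sum had −0.532 with Malat1, and −0.544 without cells 11 and 16. In without-MK cells that value was 0.116.

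Genes that work beside the machinery were mostly lower too. The 14 listed genes of ribosome making had a summed ratio of 0.355 (0.351 to 0.359), with 12 lower and 10 at least 2-fold lower. They include nucleolin (Ncl, −2.0 in log2 ratio), nucleophosmin (Npm1, −1.50) and Nop58 (−2.78), a core protein of snoRNA complexes. Of 10 genes listed for tRNA charging 9 were lower, 5 by at least 2-fold. That list also holds Aimp1 and Aimp2, scaffold proteins of the synthetase complex, of which Aimp2 (−1.71) is among the 5, and Fars2 (0.09), a mitochondrial enzyme and the one not lower. Of 5 ribosome-bound factors 4 were lower, among them Gnb2l1 (−0.88), which encodes the scaffold RACK1, and Naca (−1.55), of the nascent chain complex, while Tpt1 was higher at 1.40. Only 5 genes of the longer TOR list are in the deposited table. Of these, 4 were at least 2-fold lower (Rptor, Rictor at −4.37, Rheb and Tsc1), and Mknk1, a kinase of eIF4E, was at 1.23. Rptor had 72 and 246 reads and Tsc1 49 and 205 in with-MK and without-MK cells. Mknk1 was read in 5 with-MK and 5 without-MK cells, with a median of 0 CPM in both groups. Rictor was read in 8 with-MK and 21 without-MK cells, with medians of 0 and 18.4 CPM. Its highest without-MK value was 986.1 CPM. No direction of the pathway is read from these genes. The stress response genes were mixed, with Atf3 at 2.16 and Ddit3 at −1.95. Pabpc1, the poly(A)-binding protein, was at −1.89.

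**Figure D5:**
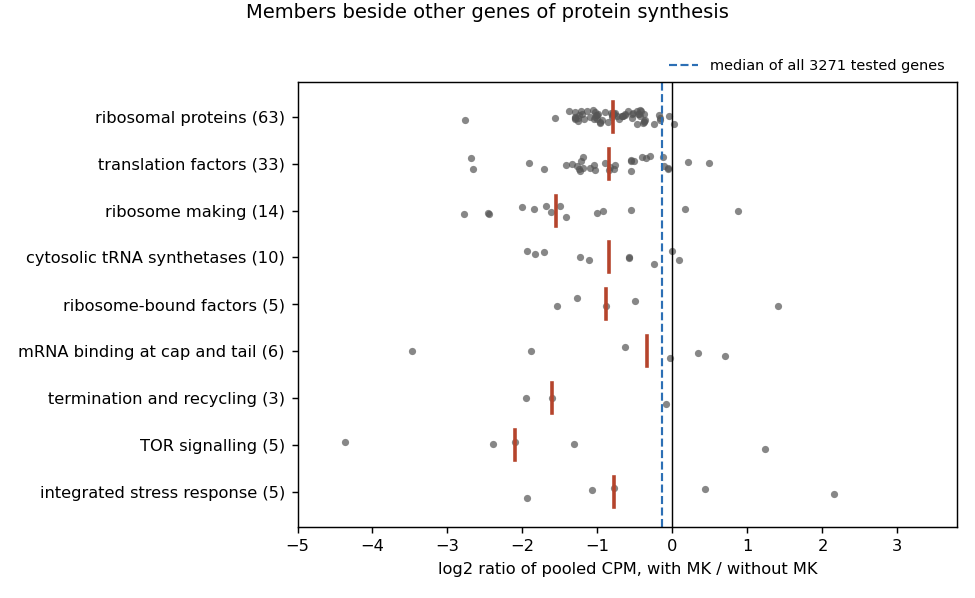
Log2 ratio of pooled CPM for each member and for the other lists; points are genes, red bars the list medians, the dashed line the median of all 3271 genes (−0.14). The row of tRNA synthetases includes Aimp1, Aimp2 and Fars2. The medians of ribosome making (−1.56) and of the 5 TOR genes (−2.11) lie below those of the members.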

How the data were processed

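Single-cell RNA reads of 20 with-MK and 24 without-MK cells were analysed from 1 table. Its deposited values are a signal. The submitters' processing notes name the mm10 build and Seurat. No aligner, counter or annotation is given in the sources used here. From the values, each is reads × 1000000000 divided by the cell's library reads and a whole number fixed for the gene, from 1 to 847 for members. Divisors of that form turned all 99807 values above 0 into whole reads (tolerance 0.0001). How the authors chose these divisors is not stated. They cancel in ratios within a gene. The steps were tested on simulated data.

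CPM is recovered reads × 1000000 over library reads. Pooled levels sum the reads of a group, with exact binomial 95% intervals of the ratio. Means per cell use log2(CPM + 1). No test was made, since each group is 1 sample, no cell was removed, and no pair of cells was identical. Members, lists and the rule for naming (in each class: largest and smallest differences, most reads, reads in all 44 cells, past 2-fold, SD extremes and most like the class sum) were chosen with earlier results of these data known. Marker lists for megakaryocytes, neutrophils and osteoclasts were also read, as given under other observations. Start regions came from RefSeq (GRCm38.p6), lengths and symbols from GENCODE M21. The length rule was not planned, and 3 were tried. The without-MK Eif4a1 share and the Rpl4 level are given under each. The order of ribosomal protein genes per kilobase was taken with the longest basic protein-coding transcript only. Python 3.11.15, numpy 2.4.6, pandas 2.3.3, scipy 1.17.1 and matplotlib 3.10.9 were used. Values of 3 single genes are not reported here, although sums and counts include them.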

Additional observations from a re-analysis of the deposited data

How the results depend on the processing

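No direction of either class changed under the alternatives run. They were listed reads as the total, median-ratio scaling and thinning to 310000 reads (18 and 22 cells). Also run were leaving out shallow cells 11 and 16, leaving out each plate's top cell, and means of the deposited signal. Other filters and pseudocounts were used as well, and, chosen after seeing the data, equal weight per cell. The top cell had the most reads of the class sum, or of each gene for medians, counts and single members. The summed log2 ratio of ribosomal proteins, −0.68, became −0.94 with listed reads, −0.59 with median-ratio scaling, −0.71 thinned, −0.77 on deposited values, −0.75 with equal weights and −0.67 without pseudogene, retrogene and like symbols. That of factors, −0.82, became −1.08, −0.73, −0.83 (thinned), −0.85 without the top cells and −0.85 with equal weights. The median difference of ribosomal proteins, −1.18, became −1.47, −1.02, −1.06 (thinned), −1.04 without cells 11 and 16, −1.23 without the top cells, −1.51 on deposited values and −0.86 with log2(CPM + 10). That of factors, −1.99, became −2.29, −1.87, −1.97, −1.92, −2.05, −2.48 and −1.56 in the same order, and −1.92 with no filter and −1.95 with a read in at least 20 cells. The count of ribosomal proteins at least 2-fold lower, 22, became 35 with listed reads and 42 at 1.5-fold. The median share of with-MK cells with a read of a ribosomal protein gene, 95%, became 100% over the 18 cells kept for thinning. These leave out cells 11 and 16, in which 51 and 26 ribosomal protein genes were read, so the 2 shares are over different cells. Over all 96 tested members, signs reversed for Eif1ax (0.025), Eif2ak1 (0.029) and Rpl37rt (0.039) with median-ratio scaling, Eif4e2 (−0.048) and Rpl36al (−0.245) with listed reads, Rpl37rt (0.317) and Rps13 (0.026) thinned, and Rpl36al without the top cells (−0.014), on deposited values (−0.066) and with equal weights (−0.066). Without the top cells Eif3l was at −2.32, Eif2a at −1.80, Rpl37rt at −0.68 and Eif2ak1 at −6.92, the last set by the floor of 3 reads. Eif2ak1 was at −0.76 with equal weights, and thinned Rpl28 was at −1.85. The cause was not tested. The median of all genes, −0.14, was −0.40 with listed reads and −0.05 with median-ratio scaling. Eif4a1 shares under each length rule stand beside that result. No paired analysis was possible because the numbers in the titles only count cells, each group is 1 sample, and the result comes from no test.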

Other observations

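Other marker lists give little beside the members. Of 9 megakaryocyte and platelet genes only Pf4 is listed, with pooled levels of 1694 CPM (with MK) and 0.483 CPM (without MK). With 1 gene, megakaryocyte RNA cannot be told apart from expression by the sorted cells themselves, and this was not tested. Of 7 neutrophil genes S100a8 and S100a9 are listed. S100a8 was at 133.9 and 1.77 CPM, while S100a9 was at 0.895 and 0.403 CPM on 14 and 5 reads. None of 5 osteoclast genes is listed. Their part in the results was not tested.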
